A study of Mus musculus with 19 samples.

Results

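The interleukin-1 (IL-1) family genes described here were 9 of the 27998 genes in the count tables, chosen by name: the ligands Il1a, Il1b, Il33 and Il18, the receptor antagonist Il1rn, the receptors Il1r1 and Il1rl1, the decoy receptor Il1r2 and the co-receptor Il1rap. Each was read in 19 droplet-based single-cell libraries (10x Genomics, 3′ end) from the Achilles tenotomy site of mice after burn/tenotomy, an injury that pairs a dorsal scald burn with a cut Achilles tendon and leads to heterotopic ossification (HO), the formation of bone in soft tissue. The time course held 4 libraries labelled day 0, 3 from day 3, 4 from day 7 and 4 from day 21. A further 4 came from p7N3 treated mice, which received this CD47-activating peptide at 10 mg/kg daily from 3 days before to 3 days after injury. The labels place p7N3 replicates 1 to 3 at day 7 and give no harvest day for replicate 4. The study set p7N3 against PBS, and the labels do not say whether the day 7 libraries that serve as its control here received PBS. The labels name both C57 mice and LysmCre/Tgfb1fx/fx mice, which lack Tgfb1 in cells that use the myeloid Lysm promoter, for every library without saying which library came from which. Wild-type mice of the study were young adult male C57BL/6J. The labels list the burn for day 0 as well, whereas the study treats day 0 as the state before injury.

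IL-1 alpha and IL-1 beta both signal through IL1R1 paired with IL1RAP, and induce neutrophil-attracting chemokines and acute-phase genes. IL-1 alpha is an alarmin that dying cells can release, whereas IL-1 beta and IL-18 are made as precursors that inflammasome-activated caspase-1 cuts. IL1RN occupies IL1R1 without signaling and IL1R2 binds ligand as a decoy. IL-33 is a nuclear alarmin of stromal and barrier cells, and its receptor ST2, the product of Il1rl1, also needs IL1RAP and is best known on mast cells, type 2 innate lymphoid cells and regulatory T cells.

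The members lie in 2 small groups of neighbors and at 4 sites of their own (GRCm38, gene spans of the GENCODE vM21 annotation). Il1a (chr2:129299610-129309972, minus strand) and Il1b (chr2:129364570-129371139, minus strand) are 54.6 kb apart. Il1r2 (chr1:40074079-40125231, plus strand), Il1r1 (chr1:40225080-40317257, plus strand) and Il1rl1 (chr1:40429570-40465415, plus strand) follow each other with gaps of 99.8 kb and 112 kb. Il1rn (chr2:24336853-24351494), Il1rap (chr16:26581704-26730117), Il33 (chr19:29925114-29960718) and Il18 (chr9:50554827-50581840), all on the plus strand, stand alone. Promoter sequence is shown for the ligand pair Il1a and Il1b, which rose together at day 3, and for both annotated starts of Il1rl1. The UMIs of Il1rl1 came mainly from immune cells at day 0 and from stromal-like cells at day 3. Each run is the 250 bases before the RefSeq start, written 5′ to 3′ on the gene's strand (build GRCm38.p6), and capitals mark a match to 1 of the motifs named after them.
Il1a, chr2:129309973-129310222: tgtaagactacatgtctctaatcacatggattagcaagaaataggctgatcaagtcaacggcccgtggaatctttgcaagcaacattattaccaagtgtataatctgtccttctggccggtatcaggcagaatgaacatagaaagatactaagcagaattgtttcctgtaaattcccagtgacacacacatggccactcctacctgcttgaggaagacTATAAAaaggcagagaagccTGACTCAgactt
Il1b, chr2:129371140-129371389: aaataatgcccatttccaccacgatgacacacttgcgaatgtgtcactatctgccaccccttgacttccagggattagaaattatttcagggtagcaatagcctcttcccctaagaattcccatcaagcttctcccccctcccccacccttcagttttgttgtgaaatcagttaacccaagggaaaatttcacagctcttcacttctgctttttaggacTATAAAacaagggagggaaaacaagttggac
Il1rl1, upstream start, chr1:40429320-40429569: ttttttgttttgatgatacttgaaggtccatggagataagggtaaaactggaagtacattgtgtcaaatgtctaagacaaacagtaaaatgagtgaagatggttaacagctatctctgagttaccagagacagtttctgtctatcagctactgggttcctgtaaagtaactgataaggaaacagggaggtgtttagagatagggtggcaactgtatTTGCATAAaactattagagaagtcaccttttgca
Il1rl1, downstream start, chr1:40439379-40439628: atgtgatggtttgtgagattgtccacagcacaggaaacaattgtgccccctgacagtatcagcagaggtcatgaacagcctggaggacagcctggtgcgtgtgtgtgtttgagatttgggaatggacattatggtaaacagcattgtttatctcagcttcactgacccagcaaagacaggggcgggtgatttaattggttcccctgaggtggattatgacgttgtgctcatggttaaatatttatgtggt

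The motifs searched on both strands were the TATA box (TATAAA), an AP-1 site (TGANTCA), a C/EBP site (TTGCNNAA) and an NF-kappa-B site. They were searched over the window from 250 bases before to 50 after each of 14 RefSeq starts of the members. Il1a and Il1b each hold a TATA box, with its first base at -32 and -31 counted from the start, and 6 of the 14 member windows hold one, against 13.6% of all 32851 windows. Il1a also has an AP-1 match with its first base at -12, and 7.81% of all windows have that motif. The upstream start of Il1rl1 has a C/EBP match with its first base at -34, found in 10.8% of all windows, and its downstream start, 10.1 kb away, has no match. The NF-kappa-B motif was found in 1 member window, at Il1r1, against 8.46% of all. These are matches of letters. The 3′ reads do not show which start of Il1rl1 was used.

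After filters on genes and mitochondrial reads per cell, 39541 cells remained, 571 to 3668 per library, with 3019467 to 39870492 UMIs (unique molecular identifiers, 1 per captured transcript) per library. Clustering without the 9 members or their pathway genes gave 31 clusters, which were named from marker lists. Levels below are CPM, the UMIs of a gene scaled to a total of 1000000 UMIs in 1 library or in 1 lineage of that library. Fold changes and adjusted p-values come from edgeR's quasi-likelihood test on those sums with Benjamini-Hochberg adjustment over all genes tested, and a gene was called changed at an adjusted p below 0.05. The edgeR scaling (TMM) differs from a plain CPM ratio, so the fold can differ from the ratio of the printed levels. The defining markers were detected in their own lineages, 12 of 12 in the monocyte/macrophage-like cells, 10 of 10 in the stromal-like cells and 7 of 7 in the granulocyte-like cells of day 3. The libraries share few cell barcodes, at most 22 for a pair.

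At the whole injury site all 9 members were higher at day 3 than at day 0, and all 9 passed the test, in a comparison where 74.6% of all genes tested were called. From day 3 to day 7, 6 of the 9 fell (57.2% of all genes called), and from day 7 to day 21 another 6 fell (44.0% called). The makeup of the site changed at the same time, and monocyte/macrophage-like cells were 11.1% of cells at day 0, 64.6% at day 3, 36.7% at day 7 and 13.3% at day 21. In sums over the whole site, fewer cells of a type and less RNA per cell cannot be told apart. The members are therefore followed by lineage below.

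Il1b, the main secreted IL-1 ligand of myeloid cells, was highest at day 3. Its level over the whole site was 78.8, 75.5, 43.0 and 48.1 CPM in the day 0 libraries, 1188, 920 and 1341 at day 3, 331, 206, 164 and 278 at day 7, and 60.8, 58.8, 46.4 and 37.4 at day 21. Day 3 did not overlap any other time. The rise to day 3 was 4.58 on the log2 scale (SE 0.24, adjusted p = 4.61e-07), followed by a fall of 2.39 (SE 0.24, adjusted p = 0.000166) and a further fall of 2.30 (SE 0.23, adjusted p = 0.000171). Il1a, the alarmin ligand, stood at 0.186 to 1.32 CPM at day 0, reached 12.3, 19.0 and 56.1 at day 3, and was at 1.22 to 4.70 at day 7 and 0 to 0.263 at day 21. Its rise was 5.79 (SE 0.84, adjusted p = 0.000195). Il1rn, the secreted antagonist, was at 0.331 to 3.71 CPM at day 0, 128, 113 and 162 at day 3, 55.1, 21.2, 21.1 and 60.8 at day 7, and 5.03 to 16 at day 21. It rose by 6.46 (SE 0.32, adjusted p = 3.6e-07) and then fell by 1.93 (SE 0.39, adjusted p = 0.00359) and 2.29 (SE 0.47, adjusted p = 0.00427).

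Within monocyte/macrophage-like cells, 6 members could be tested between day 3 and day 0 and all 6 were called, 5 higher and 1 lower, where 52.2% of all genes were called. Il1b went from 277 to 458 CPM at day 0 to 1847, 1419 and 1782 at day 3, a rise of 2.26 (SE 0.15, adjusted p = 1.41e-07). It was then at 568 to 727 at day 7 and 216 to 425 at day 21, with falls of 1.31 (SE 0.12, adjusted p = 7.09e-05) and 0.94 (SE 0.17, adjusted p = 0.00307). Il1rn rose from 0 to 19.5 CPM at day 0 to 198 to 233 at day 3, by 4.36 (SE 0.27, adjusted p = 9.51e-08). At day 7 it was at 163, 92.8, 102 and 207, overlapping day 3 in 1 library, with a difference of -0.56 (SE 0.23, adjusted p = 0.0836). It fell after that, by 1.16 (SE 0.27, adjusted p = 0.0123), to 44.5 to 106 at day 21. The Il1a rise of 3.03 (SE 1.15, adjusted p = 0.0422), from 0 to 16.2 CPM at day 0 to 19.8 to 76.1 at day 3, was lost in 7 of 16 alternative settings, among them the removal of day 0 replicate 1, 2 or 4. Of all genes, 29.9% were called between day 7 and day 3 and 14.0% between day 21 and day 7, where 7 and 4 of 9 members fell. Granulocyte markers (7 of 7 detected at day 3, all but Ly6g at day 0) summed to 16.2 to 81.6 CPM in these monocyte/macrophage-like sums at day 0, 1794 to 2711 at day 3 and, by day 7, 193 to 470, and their part in the results was not tested.

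The cells behind these sums changed. At day 0, 301 of 391 monocyte/macrophage-like cells lay in cluster 12, led by Ccl8, Folr2 and Mrc1, which mark tissue-resident macrophages. At day 3, 1762 of 3737 lay in cluster 7 (Pf4, C1qb) and 1348 in cluster 4, led by Chil3, Plac8 and Ly6c2, genes of inflammatory monocytes. At day 7, 2268 of 4861 lay in cluster 0 (Apoe, C1qb, Trem2). Il1b differed widely among them. At day 3 it averaged 3625 ± 135 CPM in cluster 4, 1727 ± 723 in cluster 6 (Arg1, Spp1), 737 ± 139 in cluster 7 and 246 ± 47.9 in cluster 12 (SD, n = 3). The level in cluster 12 was within the spread of the 236 ± 54.1 CPM of stromal-like cells in the same libraries. At day 7, cluster 4 still had 2385 ± 359 and cluster 8 (Cd74, H2-Ab1) 2073 ± 165, against 229 ± 15.7 in cluster 0 (SD, n = 4). Il1rn followed another order, with 353 ± 41.1 CPM in cluster 6, 243 ± 21.3 in cluster 7, 157 ± 1.56 in cluster 4 and 50.9 ± 5.75 in cluster 12 at day 3. Il1a was highest in cluster 6 as well, at 190 ± 136, where the spread among the 3 libraries was nearly as large as the mean. The Arg1 and Spp1 cluster thus held the highest mean of Il1a and of Il1rn among these clusters, and the Ly6c2 cluster that of Il1b. The Il1a of cluster 6 came from 1 part of it. At a finer clustering, 507 of its cells lay in a cluster led by Arg1, Cxcl2 and Cxcl3 (a cluster whose leading genes include Il1a itself) and had 566 CPM of Il1a with all libraries pooled, while 1023 cells led by Spp1 and Mmp12 had 7.90 and a further 408 had 9.30. Of the 319 cells of day 3, 277 were of the first kind, against 55 of the 745 of day 7. The pooled levels include p7N3, and p7N3 replicate 1 alone had 1348 Il1a UMIs in its monocyte/macrophage-like cells. The whole finer cluster led by Arg1, Cxcl2 and Cxcl3 averaged 491 ± 654 CPM of Il1a (SD, n = 10). Il1rn was less uneven, at 628, 287 and 364 CPM in the 3 parts of cluster 6. These cluster levels are given as a description.

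Granulocyte-like cells (S100a8, S100a9, Retnlg) numbered 307 at day 3 and 18 at day 7, so they could be compared only at day 3. Against the monocyte/macrophage-like cells of the same 3 libraries, 6 of 9 members were called, where 26.0% of all genes were called, with 5 higher and 1 lower. Il1b was at 4409, 4684 and 5925 CPM, higher by 1.88 (SE 0.10, adjusted p = 2.24e-10). Il1a was at 45.7, 228 and 289, higher by 2.52 (SE 0.23, adjusted p = 2.2e-07). Il1rn was at 485, 397 and 589, higher by 1.49 (SE 0.09, adjusted p = 2.83e-09). The decoy Il1r2 was at 698, 694 and 814 against 44.3 to 70.7, higher by 3.94 (SE 0.13, adjusted p = 6.12e-13). The co-receptor Il1rap was at 97.0, 112 and 108 against 8.84 to 12.4, higher by 3.59 (SE 0.16, adjusted p = 2.74e-11). Granulocyte-like cells thus had the highest mean of both IL-1 ligands, of the antagonist and of the decoy receptor among the lineages of day 3. Il18 was lower by 0.37 (SE 0.13, adjusted p = 0.0413), a call lost in 7 of 12 alternatives, DESeq2 and another scaling among them. This comparison was added after the data were seen.

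Dendritic cell-like cells (315 at day 3, 686 at day 7) had high Il1b at both day 3 and day 7. Their level was 2496, 2570 and 2388 CPM at day 3 and 2057, 2305, 1990 and 2485 at day 7. At day 7 they carried 28.9% of the Il1b UMIs of the site. Among lineages with at least 10 cells in a library they were also the highest for the decoy Il1r2 at day 7, at 406, 349, 325 and 264 CPM, close to their 334, 350 and 428 of day 3. The 18 granulocyte-like cells of day 7, too few per library, had 71 Il1r2 UMIs of 93488. No test was planned for these cells.

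The source of the UMIs summarizes this. At day 3, monocyte/macrophage-like cells, with 46.1% of all UMIs, gave 67.9 ± 4.4% of those of Il1b and 73.9% of those of Il1rn, and granulocyte-like cells, 5.49% of cells, gave 13.7% of Il1b and 19.9% of Il1a. Per library, the log2 ratio of Il1rn to Il1a plus Il1b UMIs in monocyte/macrophage-like cells, with 0.5 UMI added to each, was -5.03, -7.73, -4.49 and -4.33 at day 0, -3.15, -2.87 and -3.00 at day 3, -2.10, -2.81, -2.49 and -1.85 at day 7, and -2.97, -3.22, -1.04 and -2.63 at day 21. The lowest value, in day 0 replicate 2, rests on 0 Il1rn UMIs. Day 3 lay above day 0 without overlap, by 2.39, and day 7 above day 3 without overlap, by 0.69. Neither difference passed an exact two-sided permutation test after adjustment over 8 such tests (p = 0.0571, adjusted p = 0.152 for each). Each set 3 libraries against 4, with 35 splits, and the libraries were already fully separated. No split could differ more in that direction, so these tests could not pass and decide nothing. A comparison of 4 against 4 libraries, with 70 splits, can reach 0.0286. Day 21 differed from day 7 by -0.15 (exact permutation p = 0.8, adjusted p = 0.857).

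**Figure D1:**
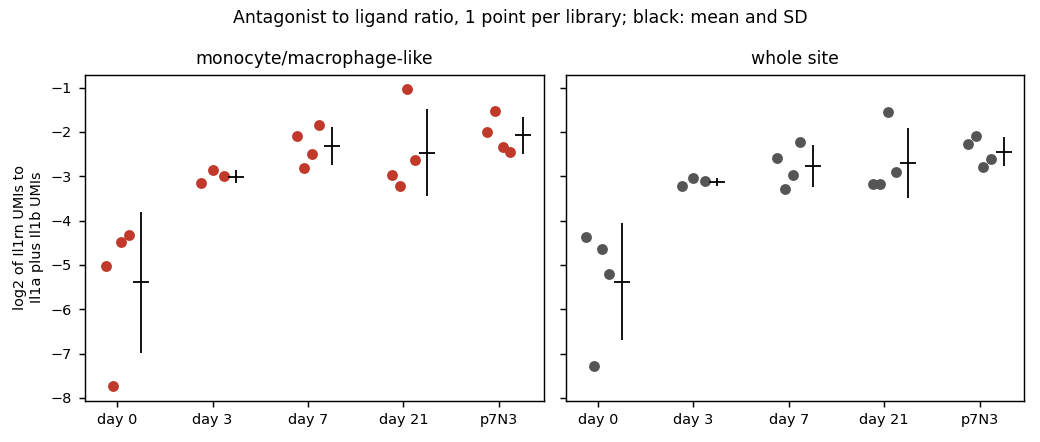
Log2 ratio of Il1rn UMIs to the sum of Il1a and Il1b UMIs in each library (points) by group, for monocyte/macrophage-like cells and for the whole site, with the mean and SD in black. Day 0 averaged -5.40 and day 3 -3.00 in monocyte/macrophage-like cells, and days 3 and 7 do not overlap there.

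In stromal-like cells, 9 members were tested between day 3 and day 0 and 8 were called, 6 higher and 2 lower, where 66.3% of all genes were called. Ligands and antagonist were among the 6. Il1b went from 0.711 to 10.2 CPM to 223, 190 and 296, by 5.95 (SE 0.32, adjusted p = 1.45e-08). Il1a had 0 UMIs in all 4 day 0 sums and 4.89, 4.81 and 12.3 CPM at day 3, at least 14.3-fold higher when 3 UMIs over the group are taken as the floor. Il1rn had 1 UMI at day 0 and 869 at day 3, a ratio of levels of 186 with a 95% counting interval of 33.3 to 7.35e+03. Markers of other cells rose in the same sums: the 12 monocyte/macrophage markers, all detected, from 68.2 to 159 CPM at day 0 to 1403 to 1530 at day 3, and the granulocyte markers, with Mmp8 at 0 at day 0, from 4.29 to 22.6 to 1414 to 2382. When each cell was thinned to 1500 UMIs, 28.9% of stromal-like cells of day 3, 237 of 821, had an Il1b UMI (98.0% unthinned, median depth 34718 UMIs), against 22.5% of erythrocyte-like cells, 18 of 80 (75.0% unthinned, median 11272), which should lack it, and 63.6% of monocyte/macrophage-like cells. Endothelial-like cells, at 27.9%, were close to the stromal share. For Il1rn the shares were 3.65% in stromal-like, 3.49% in endothelial-like and 2.5% in erythrocyte-like cells. The erythrocyte-like shares rest on 18 cells for Il1b and 2 for Il1rn, of 80. Depth before thinning differed between these cells, so close thinned shares do not show an equal number of UMIs per cell. Without thinning, Il1b had 6750 UMIs in the 821 stromal-like cells and 290 in the 80 erythrocyte-like cells. Whether stromal-like and endothelial-like cells of day 3 expressed the ligands and antagonist counted in their sums was not tested. The levels are given as counts in those sums, without a claim on which cells made them. In the endothelial-like sums all 4 members tested rose between day 0 and day 3 (56.8% of all genes called), Il1b by 5.07 (adjusted p = 3.41e-08), Il1r2 by 5.19 (adjusted p = 1.73e-06) and Il1rn by at least 49.5-fold, while their monocyte/macrophage markers went from 187 to 419 CPM to 1138 to 1481 and their granulocyte markers from 0.903 to 24.6 to 1213 to 2019. Of these 4 members, 3 fell to day 7 (15.8% of all genes called), and 1 of 2 fell from day 7 to day 21 (30.0% called). The part of the other cells in these values was not tested.

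Il1r1 was mainly a stromal and vascular gene. This signaling receptor of both IL-1 ligands was at 88.0, 49.8, 65.5 and 59.0 CPM in the day 0 stromal-like sums and at 125, 117 and 135 at day 3. Day 3 lay above all of day 0, with a rise of 1.02 (SE 0.15, adjusted p = 6.27e-05). At day 7 it was at 122, 71.7, 79.1 and 90.9, a fall of 0.54 (SE 0.16, adjusted p = 0.0243), which was lost without day 3 replicate 1, day 3 replicate 3 or day 7 replicate 3. From day 7 to day 21 it differed by 0.05 (adjusted p = 0.852). Here 5 of 9 members fell between day 3 and day 7 (40.9% of all genes called). In endothelial-like cells Il1r1 was at 18.1 to 35.9 CPM at day 0 and 90.4, 47.1 and 48.8 at day 3, a rise of 1.44 (SE 0.27, adjusted p = 0.000478). The day 3 sums held 27 to 31 cells each, 86 in all, against 1075 cells at day 0. This lineage joins cluster 10 (Plvap, Aplnr) and cluster 13 (Gpihbp1, Timp4), and cluster 13 had at least 10 cells in only 10 of the 19 libraries. The part of a changed cluster makeup in this rise was not tested. With thinning, 18.1% of stromal-like and 9.30% of endothelial-like cells had an Il1r1 UMI at day 3 and 0 of 80 erythrocyte-like cells did, which allows a share of up to 3.75%.

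The order of lineages for Il1r1 was the same at days 3 and 7. Pericyte/smooth muscle-like cells were highest, at 155, 204 and 210 CPM at day 3 and 122, 110, 110 and 112 at day 7. Stromal-like cells came next, and overlapped the pericyte/smooth muscle-like range at day 7 through their highest library. Endothelial-like cells followed at 40.9 to 63.9 CPM at day 7, below the stromal-like range, and monocyte/macrophage-like, granulocyte-like and dendritic cell-like cells were each below 10 CPM in every day 3 library. At day 7 the stromal-like sums were above the monocyte/macrophage-like sums of the same libraries by 4.52 (SE 0.13, adjusted p = 3.33e-12), and the endothelial-like below the stromal-like by 1.00 (SE 0.11, adjusted p = 5.98e-06). In the first of these comparisons 8 of 9 members were called (78.0% of all genes), 3 higher in stromal-like cells (Il1r1, Il33 and Il1rl1) and 5 lower (Il1a, Il1b, Il1rn, Il1r2 and Il18). In the second, 7 of 8 members were called lower in endothelial-like cells (59.3% of all genes), and the calls for Il1b and Il1rap were lost in 3 and 9 of 14 alternatives.

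Il1r2 and Il1rap had other patterns. At day 0, 75.2% of Il1r2 UMIs came from stromal-like cells, at 37.4, 46.4, 46.7 and 49.0 CPM, and at day 3 these cells held 18.2%, at 48.2, 36.2 and 58.0, a difference of 0.21 (SE 0.17, adjusted p = 0.3). The rest of the day 3 UMIs came mainly from monocyte/macrophage-like (32.3%), granulocyte-like (26.2%) and dendritic cell-like (16.9%) cells. Stromal-like Il1r2 then fell by 1.46 (SE 0.20, adjusted p = 0.000688). With thinning, 5.60% of stromal-like, 4.65% of endothelial-like and 2.5% of erythrocyte-like cells of day 3 had an Il1r2 UMI. The part of other cells in the stromal-like Il1r2 levels of day 3 was not tested. The whole-site rise of Il1r2 at day 3, by 2.29 (SE 0.19, adjusted p = 5.43e-06), thus came with a stromal-like difference that did not pass the test. Il1rap was at 10.5, 15.8, 12.3 and 18.5 CPM in stromal-like cells at day 0 and 7.88, 6.70 and 9.72 at day 3, below all of day 0. That fall of 0.66 (SE 0.24, adjusted p = 0.0256) was lost in 6 of 20 alternatives. Among lineages with at least 10 cells in a library, the highest Il1rap level at day 7 was that of Schwann cell-like cells, at 102, 155 and 136 CPM in the 3 libraries with at least 10 such cells, and the next highest mean was 9.18, in pericyte/smooth muscle-like cells. The 18 granulocyte-like cells of day 7 had 6 Il1rap UMIs.

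**Figure D2:**
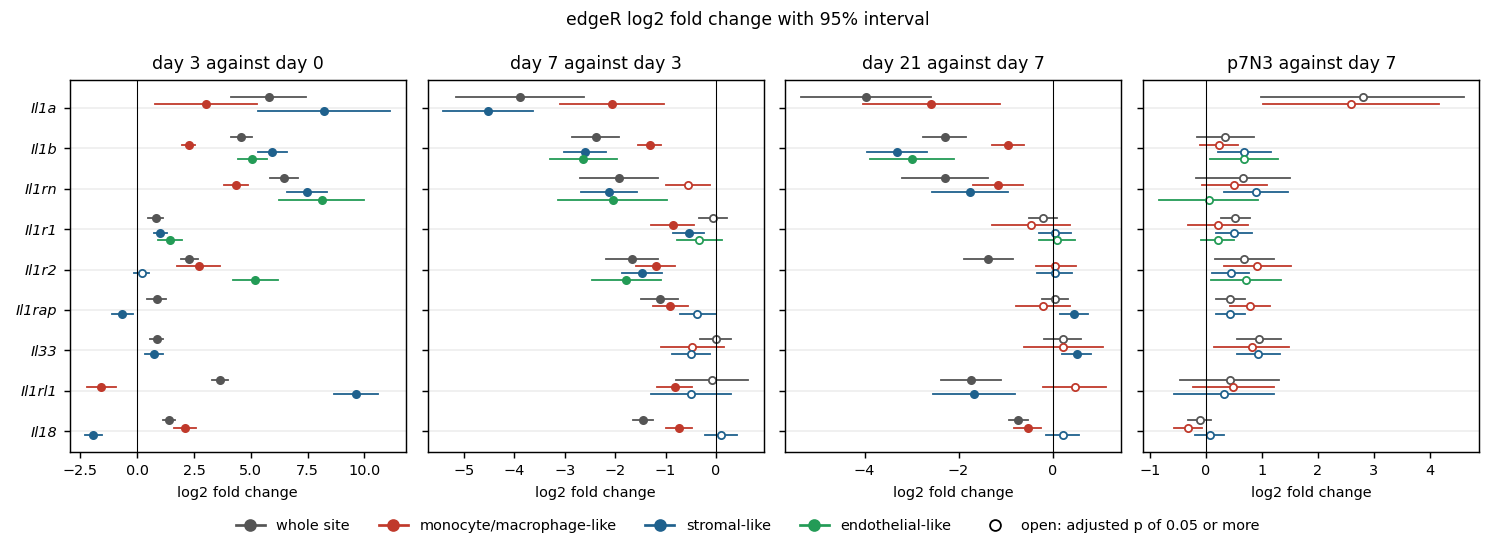
Log2 fold change of each gene (edgeR, with its 95% interval) for day 3 against day 0, day 7 against day 3, day 21 against day 7 and p7N3 against day 7, in the whole site and 3 lineages; filled points passed an adjusted p of 0.05 and open points did not. At day 3, Il18 moved up in monocyte/macrophage-like and down in stromal-like cells, Il1rl1 the other way, and no p7N3 point is filled.

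Il33, the alarmin ligand of ST2, was a stromal gene throughout, with 94.5% of its UMIs from stromal-like cells at day 0, 90.0% at day 3, 89.3% at day 7 and 72.2% at day 21, when tenocyte-like cells gave a further 25%. At a finer clustering 1089 cells were named tenocyte-like, against 3061 here. The split between stromal-like and tenocyte-like shares of any member thus depends on the clustering. Its stromal-like level was 55.1, 81.5, 50.5 and 68.9 CPM at day 0 and 102, 65 and 120 at day 3, where the lowest day 3 library lay inside the day 0 range. The rise was 0.73 (SE 0.20, adjusted p = 0.00631). The later differences were -0.50 (SE 0.19, adjusted p = 0.0624) at day 7, and 0.51 (SE 0.16, adjusted p = 0.031) from day 7 to day 21, a call lost in 10 of 21 alternatives. In that last comparison 5 of 8 stromal-like members were called, 2 higher and 3 lower (35.0% of all genes). Endothelial-like cells, a known IL-33 source in other tissues, were at 2.09 to 4.19 CPM at day 7, lower than stromal-like cells by 4.95 (SE 0.19, adjusted p = 4.13e-10).

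Among stromal-like clusters, cluster 5 (Clec3b, Myoc, Scara5) had Il33 at 48.2 ± 7.07 CPM at day 0, 149 ± 5.21 at day 7 and 82.8 ± 4.93 at day 21 (SD, n = 4). The stromal-like sum was at 61.5 to 85.1 CPM at day 7, when 364 of 4589 stromal-like cells were in cluster 5. Cluster 27, 193 cells in all, was named from its stromal markers, all 10 of which it expressed, but none of these were among its leading genes (Cldn1, Sfrp5, Krt19, Perp), several of which are genes of epithelial and barrier cells, so its class is uncertain. Its Il33 level was 345 ± 54.5 CPM at day 0 (SD, n = 3), and its 37 cells of day 0 gave 24.5% of the stromal-like Il33 UMIs. Without this cluster the stromal-like Il33 rise at day 3 was 1.03 (adjusted p = 0.000222), and each member call of the stromal-like time course was kept, in an alternative added after the data were seen.

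Il1rl1, the receptor of IL-33, had most of its UMIs in immune cells at day 0 and in stromal-like cells at day 3. At day 0 its UMIs came mainly from monocyte/macrophage-like (39.2%), T/NK lymphocyte-like (32.2%) and osteoclast-like (19.1%) cells. These shares rest on 31, 25 and 17 UMIs, the last in 18 cells. The stromal-like sums of day 0 had 0, 0, 0 and 0.711 CPM, a single UMI in 1184 cells. At day 3 the stromal-like sums had 128, 96.3 and 177 CPM, 3768 UMIs in 821 cells, and gave 90.6 ± 0.566% of the UMIs of the site. The ratio of group levels was 806-fold, with a 95% counting interval of 145 to 3.18e+04 that covers counting error only (edgeR adjusted p = 9.11e-09). At day 7 the level was 38.4, 170, 82.3 and 104, a difference of -0.50 (SE 0.41, adjusted p = 0.346) with replicate 1 lowest, and by day 21 it had fallen by 1.67 (SE 0.44, adjusted p = 0.0159) to 16.7 to 45.0. Over the whole site it rose by 3.65 (SE 0.18, adjusted p = 3.62e-07) and fell by 1.74 (SE 0.33, adjusted p = 0.00292) between day 7 and day 21. At day 21 stromal-like cells gave 60.8% of its UMIs and tenocyte-like cells 28.2%.

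With thinning to 1500 UMIs, 12.8% of stromal-like cells of day 3 had an Il1rl1 UMI (56.1% unthinned). Of endothelial-like cells 0 of 86 did (9.30% unthinned), which allows a share of up to 3.49%. Of erythrocyte-like cells 0 of 80 did (2.5% unthinned), which allows up to 3.75%. Il1rl1 had far fewer UMIs at the site than Il1b, so these zeros cannot tell whether it was spread as Il1b was. At day 0, 0 of 1115 stromal-like cells had an Il1rl1 UMI, which allows up to 0.269%. Granulocyte-like cells, whose markers rose in the stromal-like sums, were at 2.77 to 9.17 CPM of Il1rl1. The part of other cells in the stromal-like Il1rl1 levels was not tested. In monocyte/macrophage-like cells Il1rl1 moved the other way, from 18.8, 31.1, 22.8 and 9.34 CPM to 6.44, 5.70 and 6.98, a fall of 1.58 (SE 0.33, adjusted p = 0.00153). The change differed between the lineages by 11.03 (SE 0.71, adjusted p = 8.08e-15), in a test of the difference added after the data were seen, where 7 of 9 members and 29.2% of all genes were called. T/NK lymphocyte-like cells had 102 to 273 CPM at day 0 and 29.3 to 83.0 at day 7. At day 3 there were only 26 such cells, of which 10 had an Il1rl1 UMI, with 22 Il1rl1 UMIs of 259255. At a finer clustering, 35 mast cell-like cells (Cma1, Cpa3, Kit) had 802 CPM with all libraries pooled, and 13 of them were of day 0. The main clustering had no mast cell-like cluster, so these cells lay under other names there. Their part in the day 0 Il1rl1 shares of other lineages, the osteoclast-like among them, was not tested. The mast cell markers of the monocyte/macrophage-like sums were at 0 to 21.8 CPM at day 0 and 16.3 to 30.3 at day 3.

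The stromal-like cells of day 0 and day 3 lay in different clusters, 1124 of 1184 in cluster 5 at day 0 and 749 of 821 in cluster 16 (Prg4, Cxcl5, Timp1) at day 3. Il1rl1 was at 0.193 CPM in cluster 5 at day 0 and 138 ± 41.2 in cluster 16 at day 3 (SD, n = 3). Within cluster 5 itself it was at 46.0 ± 26.6 at day 7 and 3.23 ± 2.55 at day 21 (SD, n = 4). At day 7 the highest mean was in the dividing cells of cluster 15 (Birc5, Cdc20), at 186 ± 122, followed by cluster 3 (Lrrc15, Tnc), at 101 ± 55.6. These clusters come from the same libraries, and the difference between them was not tested.

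**Figure D3:**
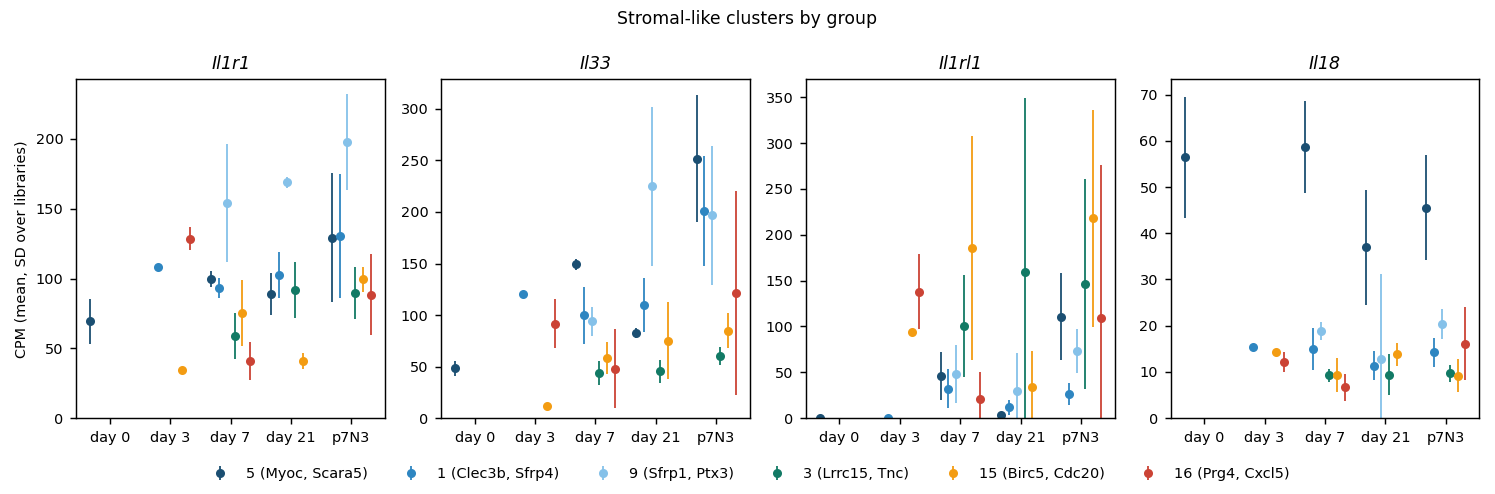
Level (CPM, mean and SD over libraries) of Il1r1, Il33, Il1rl1 and Il18 in 6 stromal-like clusters by group; points without a bar rest on 1 library. Cluster 5 holds Il18 at 56.5 at day 0 and 58.6 at day 7 while the other clusters stay at 6.68 to 18.9 at day 7, and its Il33 rises from 48.2 to 149.

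Il18, the inflammasome-dependent ligand, went from mainly stromal-like at day 0 to mainly monocyte/macrophage-like at day 3, and partly back later. At day 0, 84.5 ± 4.3% of its UMIs came from stromal-like cells. At day 3, 80.2 ± 2.33% came from monocyte/macrophage-like cells and 8.74% from stromal-like cells. These shares were 49.8% and 35.0% at day 7. At day 21 they were 24.1% and 43.3%, and tenocyte-like cells gave a further 26.5%. In monocyte/macrophage-like cells it was at 22.0, 24.2, 6.50 and 24.9 CPM at day 0 and 80.1, 94.0 and 71.2 at day 3, a rise of 2.11 (SE 0.24, adjusted p = 1.57e-05). The levels of day 7 were 48.6, 52.0, 53.5 and 37.4, a fall of 0.74 (SE 0.13, adjusted p = 0.00212), and those of day 21 were 29.2 to 37.1, a fall of 0.53 (SE 0.15, adjusted p = 0.0276) that was lost in 5 of 19 alternatives. In stromal-like cells it was at 47.4, 45.2, 45.1 and 69.6 CPM at day 0 and 10.5, 15 and 11.6 at day 3, a fall of 1.93 (SE 0.19, adjusted p = 2.12e-06), and 12.1 to 17.0 at day 7. The difference between these changes was -4.17 (SE 0.25, adjusted p = 6.17e-16). In all, 1827 genes changed upward more in stromal-like cells and 1455 more in monocyte/macrophage-like cells. With both lineages scaled together the split was 1378 to 2128 and the median of all genes moved from 0.03 to -0.18, far less than the difference for Il18 or Il1rl1.

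Cluster 5 had the highest Il18 level of the stromal-like clusters. At day 0 it gave all 326 stromal-like UMIs of Il18, but only 14 of 377 at day 3, 153 of 945 at day 7 and 131 of 354 at day 21, when most stromal-like cells lay elsewhere. Its level was 56.5 ± 13.1 CPM at day 0, 58.6 ± 9.95 at day 7 and 36.9 ± 12.4 at day 21 (SD, n = 4), while clusters 1, 3, 9, 15 and 16 ranged from 6.68 to 18.9 at day 7, and cluster 16 was at 12.1 ± 2.23 at day 3. Only 12 cells of day 3 were in cluster 5. At a finer clustering the cells of cluster 5 were uneven. The 832 of them in a cluster led by Clec3b, Pi16 and Pcolce2 had 610 of its 742 Il18 UMIs, 101 CPM with all libraries pooled, whereas 898 in a cluster led by Gsn, Dcn and Myoc had 40, or 8.46 CPM, and a further 473 had 24.1 CPM. The Pi16 cells were at 116 CPM at day 0, 93.5 at day 7 and 84.9 at day 21, pooled over libraries. Among monocyte/macrophage-like clusters, cluster 12 (Folr2, Mrc1) had 22.9 ± 9.74 CPM at day 0 (n = 4), 72.4 ± 12.7 at day 3 (n = 3) and 69.3 ± 11.3 at day 7 (n = 4), and the Arg1 cluster 6 was low at 19.4 ± 7.43 and 12.6 ± 1.79 at days 3 and 7, where Il1a and Il1rn were highest.

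Known response genes of IL-1, chemokines and acute-phase genes among them, rose at day 3. Their list was chosen with results of these data known, so its contrast with all genes is only a description. Of 18 on the list, all 18 rose over the whole site at day 3 (median 1.97, against 0.00 for all genes, of which 74.6% were called). From day 3 to day 7, 14 fell (median -1.44, against 0.02, 57.2% called). From day 7 to day 21, 1 rose and 6 fell (44.0% of all genes called). In stromal-like cells 16 of 18 rose at day 3 (median 2.05, 66.3% of all genes called) and 17 of 18 fell at day 7 (median -1.23, 40.9% called). The largest changes were those of Saa3, an acute-phase protein, and Cxcl5, a neutrophil chemokine, at 14.44 and 9.73 in the day 3 stromal-like sums, values that depend on a day 0 level close to 0. Lcn2 and Csf3 led the later stromal-like fall, by 2.86 and 2.70. In monocyte/macrophage-like cells 12 of 15 rose and 2 fell at day 3 (52.2% of all genes called), and 1 rose and 16 of 18 fell at day 7 (29.9% called). In endothelial-like cells 15 of 15 rose at day 3 (56.8% called). Markers of other cells rose in the same sums, as given above, and their part in these counts was not tested.

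The processing genes, the inflammasome sensors and proteases that release active IL-1 beta and IL-18, rose less evenly. Over the whole site 11 of 14 tested rose and 1 fell at day 3 (median 1.69, 74.6% of all genes called), led by Mefv (4.71) and Prtn3 (4.40), and 11 of 15 fell at day 7 (57.2% called), led by Nlrp3 (-2.67) and Mefv (-2.15). In monocyte/macrophage-like cells alone 5 of 12 rose and 1 fell at day 3, a share called that is near the 52.2% of all genes. Granulocyte-like cells were above monocyte/macrophage-like cells for 7 and below for 3 of 14 on the list (26.0% of all genes called), with Nlrp3, the sensor of the main inflammasome, higher by 1.85. At day 7, 13 of 14 were lower in stromal-like than in monocyte/macrophage-like cells (78.0% of all genes called). Of 17 signaling genes below the receptors, 8 rose and 1 fell over the whole site at day 3, a smaller share called than the 74.6% of all genes, with the adaptor Myd88 at 1.09 and the kinase Irak4 at 1.05, and in stromal-like cells 2 of 16 rose, including Irak2 (2.22), and 4 fell, including the inhibitory Irak3 (-1.17), again a smaller share than the 66.3% of all genes. Of the other family genes, 3 of 5 tested over the whole site rose and 2 fell at day 3 (74.6% of all genes called), and Il1f9, the ligand also called IL-36 gamma, was higher in granulocyte-like than in monocyte/macrophage-like cells by 5.85. The lists were chosen with results of these data known.

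With p7N3 treatment, no member was called against day 7 by edgeR, whereas DESeq2 called Il33 and Il1r1 in the comparisons given below. The numbers tested were 9 over the whole site, 9 in monocyte/macrophage-like, 8 in stromal-like and 4 in endothelial-like cells, and of all genes 0%, 0.00915%, 0% and 0% were called by edgeR. At an unadjusted p under 0.05 there were 1827, 868, 1574 and 836 genes. DESeq2 called 0.934%, 0.183%, 0.785% and 0.0509% of all genes. The day 7 libraries are those of the time course. Il1b was at 469, 264, 286 and 229 CPM over the whole site, against 164 to 331, a difference of 0.35 with a 95% interval of -0.15 to 0.86 (adjusted p = 0.619). Il1rn was at 106, 63.2, 41.3 and 39.1 against 21.1 to 60.8, a difference of 0.66 (SE 0.43, adjusted p = 0.575), and its log2 ratio to Il1a plus Il1b in monocyte/macrophage-like cells differed by 0.23 (exact permutation p = 0.486, adjusted p = 0.648). Il1a was at 46.6, 4.71, 2.05 and 8.31 against 1.22 to 4.70, with replicate 1 far above the rest, and its difference of 2.80 had an interval of 0.99 to 4.61 (adjusted p = 0.328).

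Il33 (whole site and stromal-like cells) and Il1rap (monocyte/macrophage-like and stromal-like cells) were the members tested whose p7N3 libraries did not overlap those of day 7. The share of all genes without such overlap is not given here, so the separation is not read as particular to these members. In stromal-like cells Il33 was at 87.8, 160, 169 and 124 CPM, against 85.1, 61.5, 69.4 and 68.1 at day 7, so that each treated library lay above each control. The difference was 0.94 (SE 0.19), with an adjusted p of 0.188 by edgeR and 0.00092 by DESeq2. Over the whole site it was 0.95 (SE 0.20, interval 0.56 to 1.35), with an adjusted p of 0.261 by edgeR and 0.00135 by DESeq2. By cluster, the mean was 252 ± 61.6 CPM with p7N3 against 149 ± 5.21 in cluster 5, 201 ± 53.4 against 99.8 ± 27.6 in cluster 1 and 197 ± 67.1 against 94.1 ± 14.0 in cluster 9 (SD, n = 4). Il1r1 over the whole site was at 83.4, 65.8, 85.3 and 80.5 CPM against 41.2 to 67.3, a difference of 0.53 (SE 0.13) with an adjusted p of 0.283 by edgeR and 0.0339 by DESeq2. Il1rl1 in stromal-like cells, at 76.0, 59.0, 173 and 187 CPM, had 2 libraries within and 2 above its day 7 range of 38.4 to 170, a difference of 0.32 (SE 0.45, adjusted p = 0.826). Il1rap was at 7.22 to 12.1 CPM in monocyte/macrophage-like cells against 4.52 to 6.79, a difference of 0.79 (SE 0.18, adjusted p = 0.333). Of the 18 response genes none was called by edgeR, and their median over the whole site was 0.53 against 0.00 for all genes. The p7N3 libraries also had granulocyte markers at 331 to 1065 CPM in monocyte/macrophage-like cells against 193 to 470 at day 7, and their part in these values was not tested.

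The genes whose levels ran most closely with each member were found over 51 points, each a lineage in a group, among 13499 genes that reached 10 CPM. Il1b ran with Alox5ap (r = 0.939) and Mcemp1 (r = 0.937), Il1rn with Clec4e (r = 0.946), Il1a with Arg2 (r = 0.905) and Il1r2 with Ifitm1 (r = 0.866) and with Il1b itself (r = 0.859). Il1r1 ran with Pcdh19 (r = 0.847) and Cxcl12 (r = 0.826), Il33 with Adgrd1 (r = 0.870), Il1rl1 with Tnfsf11 (r = 0.758) and Il18 with Dmkn (r = 0.779). Il1rap had the weakest nearest gene, 1700047M11Rik (r = 0.713). These correlations are descriptive, since points of a group share libraries.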

How the data were processed

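Per the labels and the study's methods, tissue from the injury site was digested, single-cell 3′ libraries were made with the 10x Genomics v2 kit, and the authors counted UMIs per gene and barcode with Cell Ranger against mm10. The submitters' processing notes name GRCh38 for some of these mouse libraries as well. The deposited matrices hold raw counts of UMIs, not normalized, for 27998 genes in each of 19 libraries. Day 0 replicate 1 lists every barcode and the others list called cells. The cutoffs of the study, 500 genes and 25% mitochondrial UMIs per cell, were applied, which left 39541 cells and 3019467 to 39870492 UMIs per library. Doublets were removed only as an alternative.

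Clustering used leidenalg 0.10.2 within scanpy 1.11.5 (2000 variable genes without the members or their pathway lists, 30 principal components, 20 neighbors, resolution 0.8), and clusters were named from fixed marker lists. UMIs were summed per library and lineage, with at least 10 cells per sum. Sums were compared with edgeR 4.0.16 (TMM, filterByExpr, glmQLFit and glmQLFTest) in R 4.3.3, fitting the 2 groups compared, with the library as a block between lineages, and Benjamini-Hochberg adjustment over all genes tested. DESeq2 1.42.0, RLE factors, no filter on low counts, a replicate block, other cell filters, other clusterings and leaving out each library were the alternatives. Shares of cells with a UMI were compared after thinning each cell to 1500 UMIs and leaving out shallower cells. The log2 ratio of Il1rn to Il1a plus Il1b was compared with exact two-sided permutation tests (scipy 1.17.1), with 0.5 UMI added to each term. Scripts were tested on simulated data.

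The 9 members and the gene lists were chosen with earlier results of these data known. All members are named, and from each list the genes with the 2 largest changes among those called. Granulocyte-like cells at day 7 were too few per library for the planned comparisons, so day 3 was used instead, after the data were seen. The study describes its single-cell work as replicated at each time to cover variability among mice, but the labels do not tie libraries to mice, so p-values measure the spread between libraries. Intervals and upper limits cover counting error only.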

Additional observations from a re-analysis of the deposited data

Results flagged for a closer look

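In 122 groups of 4 libraries, 8 had a highest or lowest library set apart from the other 3. Chance alone would give about 1 in 20, a share near the one found. Over the whole site these were Il1a in day 7 replicate 4 (4.70 CPM, others 1.22 to 1.48), Il1a in p7N3 replicate 1 (46.6, others 2.05 to 8.31), Il1rn in day 21 replicate 3 (16, others 5.03 to 6.68) and Il1r2 in day 7 replicate 1 (46.5, others 23.5 to 27.3). By lineage they were Il1r1 in endothelial-like cells of p7N3 replicate 3 (48.1, others 65.5 to 68.8), Il33 in endothelial-like cells of day 7 replicate 2 (4.19, others 2.09 to 2.40), Il18 in monocyte/macrophage-like cells of day 0 replicate 3 (6.50, others 22.0 to 24.9) and Il18 in stromal-like cells of day 0 replicate 4 (69.6, others 45.1 to 47.4).

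The change from day 0 to day 3 differed in direction between lineages for Il1rl1, which rose by 9.62 in stromal-like cells and fell by 1.58 in monocyte/macrophage-like cells (difference 11.03), and for Il18, which fell by 1.93 and rose by 2.11 (difference -4.17).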

How the results depend on the processing

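Of 92 calls for members, 78 held under every alternative run, and over 1555 recomputed values 1477 kept the direction and the side of the threshold, 78 lost the call and 0 reversed. The numbers of all genes called against day 7 with p7N3 moved most. By DESeq2 they were 139 over the whole site, 20 in monocyte/macrophage-like, 105 in stromal-like and 5 in endothelial-like cells, against 0, 1, 0 and 0. A fit of all 5 groups gave 1, 2 and 8 in the first 3. Without a filter on low counts 34 were called in monocyte/macrophage-like and 27 in endothelial-like cells. In monocyte/macrophage-like cells replicates 1 to 3 gave 4, and removing likely doublets or clustering on all variable genes gave 0. In stromal-like cells finer clustering, all variable genes or adding tenocyte-like cells each gave 1, the last chosen after seeing the data. DESeq2 called 1809 genes between granulocyte-like and monocyte/macrophage-like cells, against 2768. The cause was not tested for any of these.

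Replicates with the same number mostly did not deviate together (correlations mostly near 0, in no comparison all above 0.1), so the numbers were not taken as pairs. The highest correlations were those of replicate 4 between day 21 and day 7. They were 0.228 over the whole site, 0.161 in monocyte/macrophage-like and 0.236 in stromal-like cells, against -0.0302 in endothelial-like cells. With a replicate block, 660 genes in place of 1444 were called between day 7 and day 3 in endothelial-like cells, and 2 in place of 1 with p7N3 in monocyte/macrophage-like cells. The block also lost Il1rap in stromal-like cells at day 3 (adjusted p = 0.134) and at day 21, and Il1rn in endothelial-like cells at day 7, and no other member.

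Leaving out each library in turn gave 2191 to 3141 genes between day 7 and day 3 in monocyte/macrophage-like cells (lowest without day 3 replicate 1), 886 to 1305 between day 21 and day 7 (lowest without day 21 replicate 2, and 891 without replicate 3), 3612 to 5096 between day 7 and day 3 in stromal-like cells and 824 to 1572 in endothelial-like cells (both lowest without day 3 replicate 1, and 881 without replicate 3 in the latter), 0 to 4 with p7N3 in monocyte/macrophage-like cells (highest without p7N3 replicate 4), and 1756 to 2480 between granulocyte-like and monocyte/macrophage-like cells (lowest without day 3 replicate 3). The log2 ratio difference between day 21 and day 7, -0.15 in monocyte/macrophage-like cells and 0.07 over the whole site, ranged from -0.63 to 0.10 and from -0.32 to 0.25. It changed sign without day 7 replicate 4 (0.00), day 21 replicate 1 (0.02) or day 21 replicate 2 (0.10) in the first, and without day 7 replicate 2 (-0.10) or day 21 replicate 3 (-0.32) in the second. The planned comparisons of granulocyte-like cells at day 7 were not run, since no library had enough of them. Depth limits members near 10 CPM or below, such as Il1a and Il1rap in many sums and Il1r1 and Il33 in monocyte/macrophage-like cells.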

Other observations

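Granulocyte-like cells were also present in 3 p7N3 libraries, 14, 18 and 22 cells, where Il1b was at 4857, 7029 and 3388 CPM and Il1rn at 1702, 2634 and 435. No day 7 library had 10 such cells, so these values have no control. Within the day 7 dendritic cell-like cells Il1rn averaged 56.6 ± 22.1 CPM and Il18 17.0 ± 4.61 (SD, n = 4), while in osteoclast-like cells Il1rn averaged 55 ± 16. Among monocyte/macrophage-like clusters the highest Il18 mean of day 3 was 167 ± 30.7 CPM (SD, n = 3), in cluster 22, which is led by the interferon-induced genes Ifit3 and Isg15.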
